A study of Mus musculus with 44 samples.

Results

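The replication-dependent histone genes were followed across the liver and the brain of C57BL/6 male mice kept on a control diet (CD) or a ketogenic diet (KD). They were taken as all protein-coding genes whose GENCODE M21 symbol begins with Hist1h, Hist2h, Hist3h or Hist4h. This gave 67 genes of the 54446 identifiers in the count table. They comprised 6 genes for the linker histone H1, 18 for H2A, 18 for H2B, 12 for H3 and 13 for H4. On the GRCm38 assembly 54 of them lie in the Hist1 cluster on chromosome 13, 10 in the Hist2 cluster on chromosome 3, 2 in the Hist3 cluster on chromosome 11, and Hist4h4 lies alone on chromosome 6. RNA was sequenced in 44 libraries from 6 groups: liver at 26 months on CD (8) or after the one-year KD (8), brain at 12 months on CD (5) or after the one-week KD (7), and brain at 26 months on CD (8) or after the one-year KD (8). The one-year KD was cyclic, with weeks of KD and CD in turn from 12 months of age, and its tissues were collected in a CD period. The KD held fat in place of carbohydrate, with the protein share of the CD. The animals came from an aged colony, their genotype label is empty, and the labels name neither batches nor dates. The libraries were depleted of ribosomal RNA and not selected for poly(A), so mRNAs without a poly(A) tail could be counted.

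Replication-dependent histone genes supply the histones that package newly copied DNA, and their mRNAs accumulate in S phase and are degraded when DNA synthesis ends. They are the only metazoan mRNAs known to end in a conserved stem-loop rather than a poly(A) tail. The stem-loop is bound by SLBP and cleaved 3′ of the stem with the help of the U7 snRNP. H2A, H2B, H3 and H4 form the nucleosome core and H1 binds the linker DNA. Cells that no longer divide replace their histones largely through variant genes with introns and poly(A) tails, such as H3f3b, and some Hist genes can also yield polyadenylated transcripts from a site further downstream.

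The stem-loop was searched for in the annotated transcripts, within 100 bases after the stop codon, as a stem of 6 pairs opening with GG and a loop of 4 bases opening with T. It was present in 46 of the 52 members with at least 16 bases annotated after the stop codon (88.5%), and in 23 of 21017 other protein-coding genes (0.109%), among them H2afx, the gene of the variant H2A.X. The other 15 members end at or near the stop codon in the annotation, so their stem-loop was not analysed here. The stem-loops below belong to the members on which the levels and tests turn. Capitals mark the stem and loop, in DNA letters on the coding strand and 5′ to 3′, with 5 annotated bases on each side in lower case.
Hist1h1c: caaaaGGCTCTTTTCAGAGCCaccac
Hist1h1e: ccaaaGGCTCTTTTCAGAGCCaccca
Hist2h2ac: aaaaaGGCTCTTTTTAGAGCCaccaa
Hist3h2a: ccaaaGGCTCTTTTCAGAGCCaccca
Hist1h2bj: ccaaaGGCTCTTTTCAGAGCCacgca
Hist3h2ba: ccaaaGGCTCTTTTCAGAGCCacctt
Hist1h3a: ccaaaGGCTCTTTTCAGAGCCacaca
Hist1h3e: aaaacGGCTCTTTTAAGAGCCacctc
Hist1h4c: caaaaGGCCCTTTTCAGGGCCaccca
Hist1h4d: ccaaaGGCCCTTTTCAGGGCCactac
Hist1h4h: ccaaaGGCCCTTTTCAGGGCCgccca
Hist4h4: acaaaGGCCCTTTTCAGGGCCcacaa
The H1, H2A, H2B and H3 genes shown share the stem GGCTCT, while the H4 genes shown have GGCCCT. Hist1h2bc, the most abundant H2B gene of the liver, held no such stem-loop in its annotated transcript, which is spliced to an exon further downstream.

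The members also share proteins. All 13 H4 genes encode the same protein of 103 residues. The 12 H3 genes encode 2 proteins that are 99.3% identical, with 8 genes for the one and 4 for the other. The 18 H2A genes encode 9 distinct proteins and the 18 H2B genes 11. The 6 H1 proteins are all distinct, with 58.0% to 88.2% identity in pairs.

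Promoters, windows of 300 bases around the start, were found for 62 members in the RefSeq table of GRCm38.p6. CCAAT, searched on both strands, stood in every promoter of an H1 (6), H2A (18), H2B (16) or H3 (10) gene, in 3 of the 12 H4 promoters (25%), and in 37.4% of all 32851 promoters. TATAAA stood in 35 of the 62 (56.5%) against 13.6% of all. ATTTGCAT, the octamer known from H2B promoters, stood in 7 of 18 H2A and 7 of 16 H2B promoters and in none of the H1, H3 and H4 promoters, against 1.74% of all. Of the H2A and H2B genes, 12 pairs start back to back, 176 to 306 bases apart. The promoter of Hist1h2ac (chr13:23683910-23684209, minus strand) is shown because it spans the whole interval to the start of Hist1h2bc, a pair whose levels differed widely. That of Hist1h4h (chr13:23530794-23531093, plus strand), the H4 gene with the highest level per length, is shown for contrast. Capitals mark these motifs on either strand, and the Hist1h4h sequence holds none of them.
Hist1h2ac: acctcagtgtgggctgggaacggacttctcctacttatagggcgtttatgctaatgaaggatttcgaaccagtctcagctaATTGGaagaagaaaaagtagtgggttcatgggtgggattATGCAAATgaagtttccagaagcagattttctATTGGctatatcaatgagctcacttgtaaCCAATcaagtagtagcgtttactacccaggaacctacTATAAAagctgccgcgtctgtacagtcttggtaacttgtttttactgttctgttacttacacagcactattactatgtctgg
Hist1h4h: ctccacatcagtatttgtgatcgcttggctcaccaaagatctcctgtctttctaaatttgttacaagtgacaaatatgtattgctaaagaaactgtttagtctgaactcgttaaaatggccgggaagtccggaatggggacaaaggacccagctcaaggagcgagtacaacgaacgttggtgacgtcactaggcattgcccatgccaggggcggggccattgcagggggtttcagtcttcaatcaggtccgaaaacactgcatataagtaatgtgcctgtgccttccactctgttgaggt

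Near-identical sequences limit what can be counted. Of windows of 75 bases along each member's transcripts, 0% were unique to it for 5 members (Hist2h2aa1, Hist2h2aa2, Hist2h2bb, Hist2h3b and Hist2h3c1), and these 5 had 0 counts in all 44 libraries. In all, 6 members had 0 counts and 10 had under 10 counts over the 44 libraries together, and at least 50% of the windows were unique in 36 members. A low count of a member with few unique windows therefore need not mean a low level. Levels are given as CPM, counts relative to the depth of the library, scaled by trimmed means (TMM), and as CPM per kb of annotated exon where genes are compared. The members took 0.0293% to 0.13% of a library's counts, and totals ranged from 6879726 to 12744415 counts.

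Markers matched the labelled tissues: 8 neuron markers summed to 10.1 to 31.3 CPM in the livers and 3149 to 5727 CPM in the brains, and every liver had counts of all 10 hepatocyte markers. Several libraries stood apart. CD livers 3, 5, 6 and 7 and KD liver 12 had Mki67, a nuclear protein of dividing cells, at 105.7 to 338.0 CPM, and the other 11 livers at 5.29 to 44.4 CPM. In the same 5 livers the 6 Kupffer cell markers summed to between 2132 and 5153 CPM, while the other 11 had 142.9 to 1038 CPM. The 9 neutrophil markers summed to 34.8 to 2132 CPM in these livers and to 4.92 to 13.7 CPM in the other 11. The predicted gene Gm10800 made up 1.23% to 2.39% of counts for CD liver 1 and KD livers 10, 11, 14, 15 and 16, and under 0.01% in the other livers. In the brain it took at most 0.0017% at 12 months and 0.0347% to 1.22% at 26 months. Results were also computed without the libraries above 0.01% in the liver, or above 0.5% in the brain and in the tissue comparison, and without the livers high in Mki67.

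In the brain the summed level of the members was close between groups. It was 336.7 ± 22.7 CPM (SD, n = 5) at 12 months on CD, 340.0 ± 26.8 CPM (n = 7) after the one-week KD, 352.8 ± 47.4 CPM (n = 8) at 26 months on CD and 377.4 ± 32.8 CPM (n = 8) after the one-year KD. In the liver it was 808.9 ± 371.1 CPM (n = 8) on CD and 456.0 ± 135.8 CPM (n = 8) after the one-year KD. The CD livers ranged from 323.3 to 1317 CPM, and the 4 highest were CD livers 6, 3, 7 and 5, followed by KD liver 12. The lowest were the livers high in Gm10800, CD liver 1 at 323.3 CPM and KD livers 10, 11, 14, 15 and 16 at 317.3 to 434.8 CPM. Those livers were also lowest for the 13 genes of histone mRNA 3′ end processing, with sums of 340.6 to 398.7 CPM against 536.8 to 610.0 CPM. The low level was not particular to that list. Variant histone genes summed to 339.8 to 408.4 CPM against 539.4 to 871.5, and histone mRNA decay to 451.7 to 551.8 against 716.1 to 854.1. Histone chaperones summed to 684.5 to 884.1 against 1077 to 1402 CPM. Only for DNA replication and mitosis, of these related lists, did the sums overlap. The part of the livers high in Gm10800 in the difference between the diets was not tested. The classes had different weights in the tissues. H4 genes made up 57.0% ± 2.25 of the summed CPM in the 26-month CD brain and 35.1% ± 3.55 in the CD liver (SD, n = 8 each), and H1 genes 16.7% ± 2.29 and 31.4% ± 3.24.

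**Figure D1:**
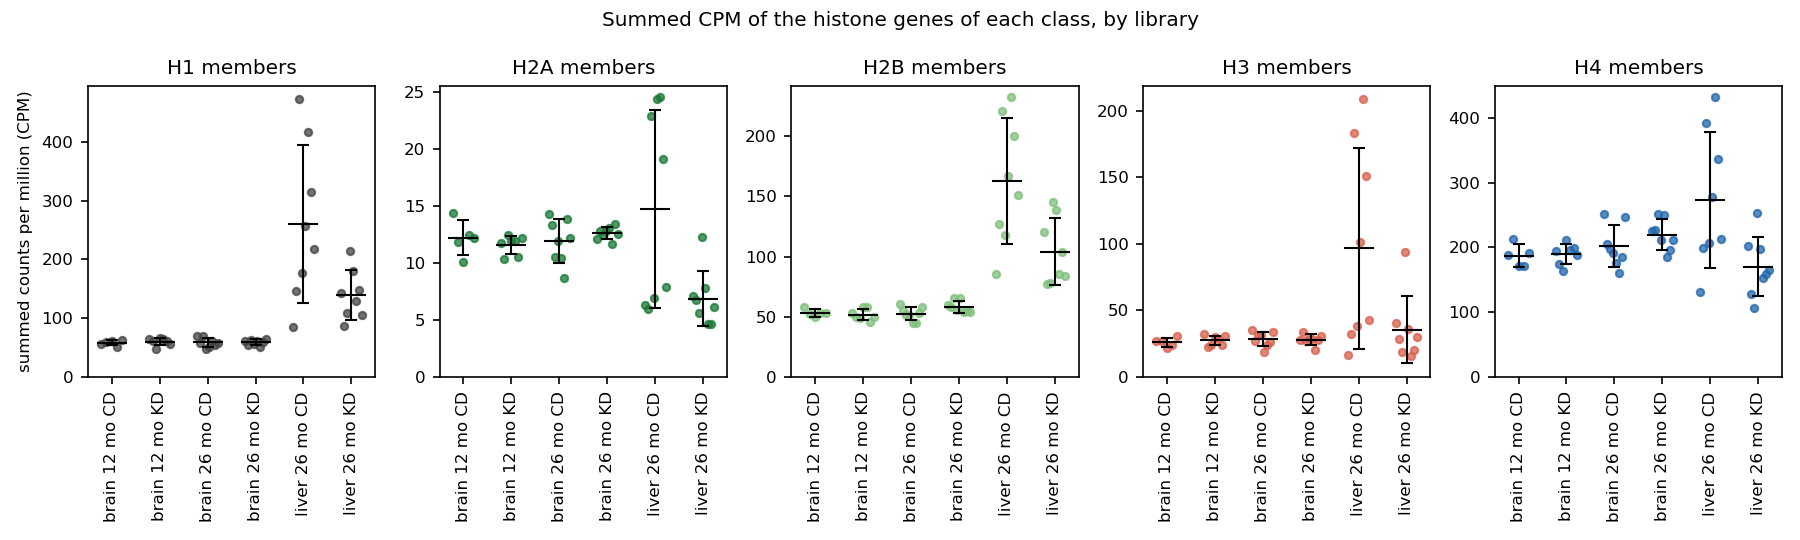
Summed CPM of the members of each histone class (y axis) in each of the 44 libraries (points), by group (x axis), with the mean and SD of the group in black. The 4 brain groups lie close together in every class, while the CD livers spread over the widest range, for H3 from 16.4 to 208.5 CPM.

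The linker histone genes were led by Hist1h1c (chr13:23738808-23740367, plus strand). Its level per length was 63.2 CPM per kb over the 16 livers and 15.1 over the 28 brains. In CPM, Hist1h1c had its lowest, median and highest value at 44.2, 128.4 and 204.6 in CD livers, at 41.4, 75.3 and 103.9 in KD livers and at 19.2, 22.6 and 35.9 in 26-month CD brains. The livers lay above these brains without overlap. Hist1h1e, another somatic linker histone gene, followed with 29.0 CPM per kb in the liver and 11.9 in the brain. Hist1h1t, the linker histone of the testis, was near 0, with 41 counts over all 44 libraries.

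The H2A genes had the lowest levels of the core classes. The highest in the liver were Hist2h2ac at 3.54 CPM per kb and Hist1h2ak at 2.0, and the highest in the brain were Hist3h2a at 3.62 and Hist2h2ab at 2.59. Hist1h2aa, an H2A gene of the testis, had 8 counts in all 44 libraries. Of the 18 H2A genes, 12 had under 50% unique windows. The summed H2A level in the CD liver, 14.8 ± 8.71 CPM (SD, n = 8), may therefore understate what the class holds. Whether it does depends on how reads with several hits were treated, which is not given in the sources used here.

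Among the H2B genes, Hist1h2bc (chr13:23684199-23692908, plus strand) was highest in the liver with 63.5 CPM per kb, and Hist1h2bn followed with 19.2. In the brain Hist3h2ba (chr11:58948920-58949533, plus strand) was highest with 15.2 CPM per kb and Hist1h2bc followed with 12.6. Hist3h2ba had its lowest, median and highest CPM at 7.90, 9.12 and 14.6 in 26-month CD brains and at 0, 0.305 and 1.71 in CD livers. All of these brains lay above all of these livers.

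Each of the 12 back-to-back pairs had more counts for its H2B gene than for its H2A gene over the 44 libraries, without correction for gene length. Only 4 of the pairs had at least 100 counts for both genes, and Hist1h2ap and Hist1h2br had just 0 and 1 counts. In the pair whose shared promoter is printed above, Hist1h2ac averaged 1.22 CPM in the livers and 0.983 CPM in the brains, while Hist1h2bc averaged 73.4 and 14.6 CPM. The partners of this pair were far apart in level, more so in the livers than in the brains. In the Hist2h2ac and Hist2h2be pair, the H2A gene averaged 1.84 CPM in the livers and 0.764 in the brains, and the H2B gene 7.14 and 8.64. The annotated exon is 520 bases for Hist2h2ac and 2620 for Hist2h2be. Per kb of exon the order in the livers turned, with 3.5 CPM per kb for Hist2h2ac and 2.7 for Hist2h2be. In the brains it did not, with 1.47 and 3.3. The unique share of windows differed within several pairs, being 22.4% for Hist1h2ag and 49.6% for its partner Hist1h2bj, and the part of this in the counts was not tested.

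**Figure D2:**
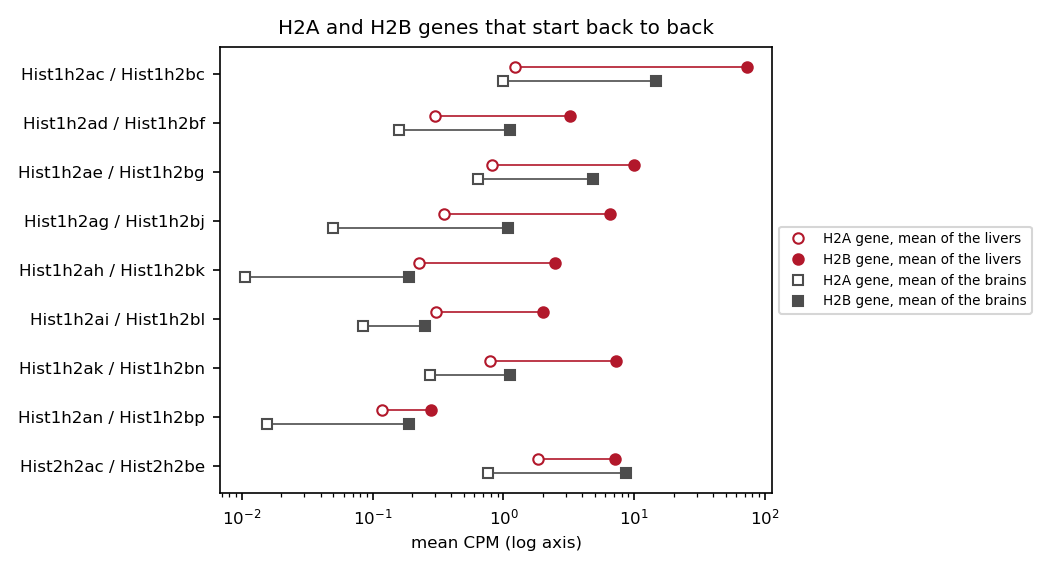
Mean CPM (x axis, log scale) of the H2A gene (open) and the H2B gene (filled) of the 9 back-to-back pairs whose H2A gene had at least 20 counts, over the 16 livers (red circles) and the 28 brains (grey squares). In CPM, without correction for gene length, the H2B gene lies to the right in every pair and tissue shown, most of all for Hist1h2bc in the livers.

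Of the H3 genes, Hist1h3e (22 CPM per kb) and Hist1h3i (16.4) were highest in the liver, and Hist1h3i (13) and Hist1h3e (11.2) in the brain. The H4 genes had the highest levels per length of the core histone classes in the brain. Hist1h4h (chr13:23531050-23531519, plus strand) reached 59.0 CPM per kb in the brain and 82.2 in the liver, and Hist1h4d (chr13:23581598-23582735, plus strand) 57.1 and 62.5. In CPM, Hist1h4d had its lowest, median and highest value at 49.5, 63.2 and 81.3 in 26-month CD brains and at 45.8, 79.0 and 123.6 in CD livers, and these groups overlapped.

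The comparison of one-year KD with CD livers asked whether histone genes follow the diet at an advanced age. No member was called at an adjusted p under 0.05 in edgeR, of 37 tested (background 0% of 18002 genes). Nearly all estimates lay below 0: 36 of 37 members had a lower level after the one-year KD, with a median log2 fold change of -1.04 against 0.04 over all genes tested. At an unadjusted p under 0.05, 21 members were lower and 0 higher, where 8.47% of all genes tested were lower. The smallest adjusted p of a member was 0.291, for Hist2h2ac. Lower cell numbers of a type and less RNA per cell cannot be told apart in these bulk tissues.

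Hist2h2ac (chr3:96220361-96220880, minus strand) had values of 2.0, 1.41, 3.41, 1.70, 2.22, 4.76, 3.13 and 1.44 CPM in CD livers 1 to 8 and from 0.681 to 2.24 CPM in the KD livers. The groups overlapped, and the highest values were in CD livers 6, 3 and 7. Its log2 fold change was -0.87 ± 0.28 (SE, edgeR adjusted p = 0.291). Hist1h3a, which encodes the less common of the H3 proteins, had 1.78, 4.58, 14.9, 5.00, 9.33, 18.6, 15.3 and 5.54 CPM in CD livers 1 to 8 and 2.0 to 8.73 CPM in the KD livers. Its log2 fold change was -1.07 ± 0.38 (adjusted p = 0.295). The same CD livers, 3, 5, 6 and 7, stood above the rest. Hist1h2bj (chr13:22043214-22043676, plus strand) had 0.666, 1.88, 19.3, 1.70, 12.1, 26.5, 18.1 and 2.46 CPM in CD livers 1 to 8 and 0.666 to 5.32 CPM in KD livers, a log2 fold change of -1.70 ± 0.64 (adjusted p = 0.295).

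The same livers were high for many members. In 27 of the 37 members tested, the 5 highest of the 16 livers were CD livers 3, 5, 6 and 7 and KD liver 12, which were also the 5 highest for Mki67. In 15 of the 27 these livers stood in the order they had for Mki67. The share of all genes with the same 5 highest livers was not computed, so the count is not read as particular to the members. The summed Kupffer cell and neutrophil markers were also highest in these livers. The spread was wide: Hist1h2bn reached 26.8, 10.4, 36.2 and 19.9 CPM in CD livers 3, 5, 6 and 7, 10.1 CPM in KD liver 12, and 0.353 to 2.36 CPM in the other 11. Hist1h3i differed 84.1-fold between its highest and its lowest liver, and in the brain 2.67-fold. Its lowest liver value was 0.340 CPM in KD liver 11, a level of few counts, so the liver ratio is imprecise. Of its windows, 21.7% were unique.

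The other 10 members had other livers among their 5 highest. They were Hist1h1c, Hist1h1e, Hist1h2ac, Hist1h2bc, Hist2h2be, Hist2h3c2, Hist1h4c, Hist1h4d, Hist1h4h and Hist1h4i, and they included the genes with the highest level per length of the H1, H2B and H4 classes in the liver. Hist1h4h spanned 23.2 to 51.9 CPM over the 16 livers, a 2.24-fold range, and Hist1h4c 19.3 to 45.0 CPM, a 2.33-fold range. Hist1h2bc went the opposite way in part, with its 2 lowest values of the 16 livers, 44.4 and 34.6 CPM, in CD livers 3 and 6, while the other CD livers were at 59.4 to 116.8 CPM. Hist2h3c2, an H3 gene of chromosome 3, was likewise lowest in CD livers 6 and 3, at 0.285 and 0.487 CPM, with KD liver 10 next at 0.488 CPM. Hist1h2bc and Hist2h3c2 were pointed out after their values were seen. The annotated length after the stop codon, which the choice of the genes did not use, differed between the sets. Its median was 94 bases in the 27 members with the 5 highest livers of Mki67 and 782 bases in the other 10, and it exceeded 300 bases in 10 of 27 and 9 of 10. Among the 27, the models of Hist1h1b, Hist1h2bn, Hist1h3h, Hist1h3i and Hist1h4k end at the stop codon, with 0 bases annotated after it. Such models may lack the 3′ end, and they lower the median of the 27. The difference in length is a description, since the sets were formed from the values.

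**Figure D3:**
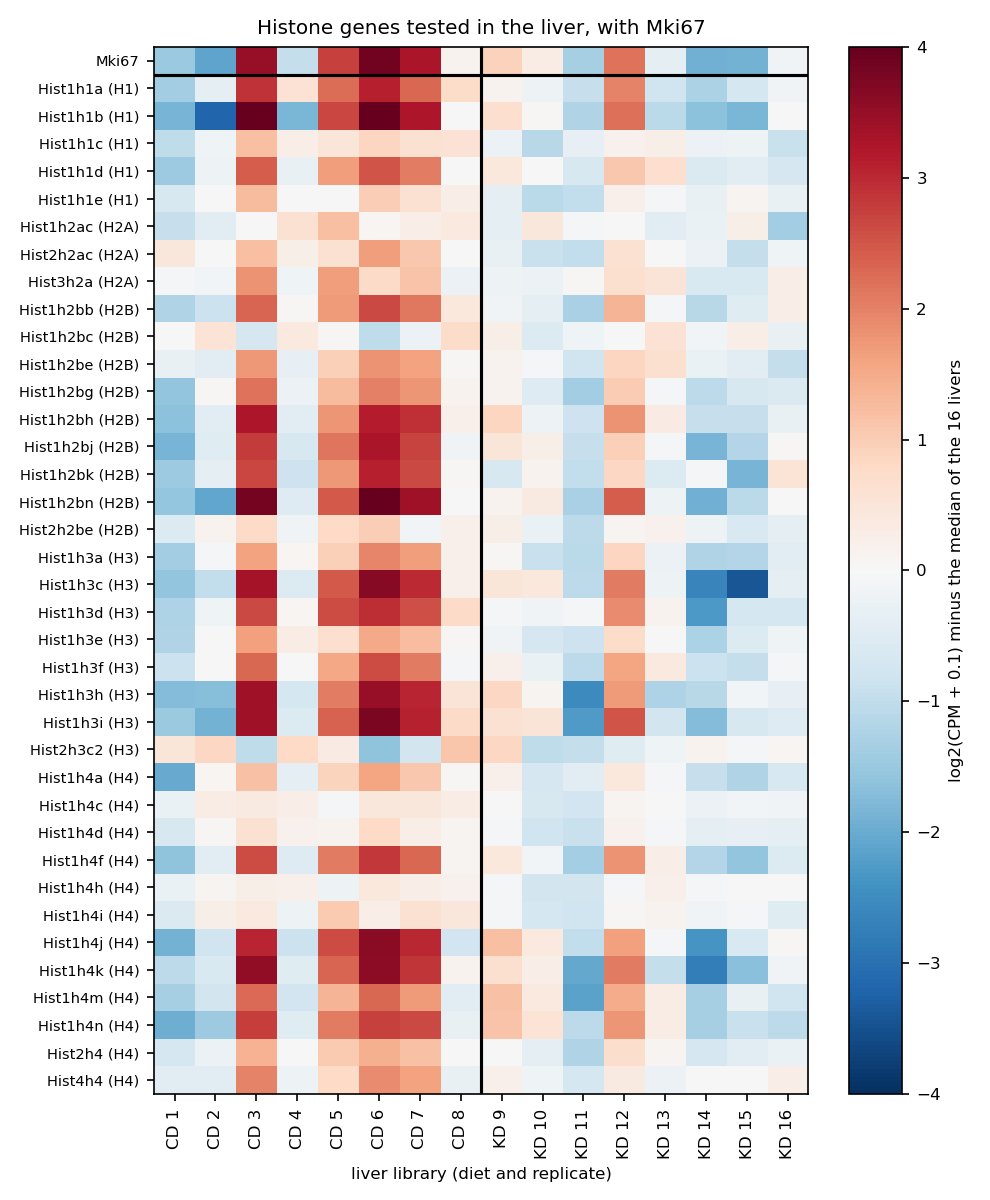
Level of the 37 members tested in the liver and of Mki67 (rows) in the 16 livers (columns), as log2(CPM + 0.1) minus the median of the row over the livers. Red is above and blue below the median, and CD livers 3, 5, 6 and 7 and KD liver 12 are red in most rows, with Hist1h2bc and Hist2h3c2 blue in CD livers 3 and 6.

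Without the 5 livers above 100 CPM of Mki67, which left 4 CD and 7 KD livers, the pattern was no longer present. The median log2 fold change of the 33 members tested was 0.08, against 0.09 over all genes, and 14 of 33 lay below 0. No member was called, and at an unadjusted p under 0.05, 0 were lower and 2 higher. Hist1h2bj had a log2 fold change of 0.63 ± 0.44 and Hist1h3a of -0.25 ± 0.25. This alternative was chosen after seeing the data. The livers left out were the 5 highest for 27 of the 37 members, so their removal took away the high values by construction. The livers kept included CD liver 1 and KD livers 10, 11, 14, 15 and 16, which were high in Gm10800. This fit therefore cannot show what the pattern rested on. The number of members with an unadjusted p under 0.05 and lower also fell from 21 to 6 without CD liver 3, to 6 without CD liver 6 and to 11 without CD liver 7. It was 1 without the livers high in Gm10800, 1 with receptor genes as a covariate, 2 with limma voom and 36 with DESeq2, and no alternative called a member. The fit without the livers high in Gm10800 kept only KD livers 9, 12 and 13 on the KD side. The unadjusted share of all genes is not given for these alternatives, so their counts cannot be read against a background.

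Genes of related processes were looked at in the same fit. Of 41 genes of DNA replication and mitosis, 39 were tested, 38 lay below 0, the median was -0.74 on the log2 scale, and 5 were lower at an unadjusted p under 0.05 (12.8%, where 8.47% of all genes were). Rrm2, a subunit of the enzyme that makes deoxyribonucleotides, had a log2 fold change of -1.06 ± 0.38 (adjusted p = 0.295). Of 11 variant histone genes, 10 were tested, with a median of -0.21. H2afx, whose mRNA also bears the stem-loop, had -0.78 ± 0.22 (adjusted p = 0.291) and H2afj -0.55 ± 0.18 (adjusted p = 0.291). The 13 genes of histone mRNA 3′ end processing had a median of -0.10, the 13 of histone mRNA decay -0.01 and the 16 histone chaperones -0.14. Slbp ranged from 10.9 to 30.9 CPM in the CD livers and from 9.51 to 20.02 CPM in the KD livers. All 6 Kupffer cell markers lay below 0, 5 of them at an unadjusted p under 0.05, with a median of -2.02 and summed levels of 168.4 to 5153 CPM on CD and 142.9 to 2132 CPM after the KD. The 5 neutrophil markers tested of 9 had a median of -4.44, with sums of 4.92 to 2132 CPM on CD and 8.12 to 34.8 CPM after the KD. The 7 erythroid precursor markers had a median of -0.93, 6 of them with an unadjusted p under 0.05. No marker of either list was at 0 in all livers, and their part in the result was not tested. None of these genes passed the adjusted threshold.

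To see which members each tissue holds, CD livers were compared with CD brains at 26 months. In edgeR, 22 of the 36 members tested were higher in the liver (61.1%, background 36% of 20463 genes) and 2 were lower (background 41%). The median log2 fold change of the members was 1.11, against -0.07 over all genes. By class, 5 of 5 H1, 1 of 3 H2A, 6 of 9 H2B, 6 of 7 H3 and 4 of 12 H4 genes were higher. The median was 2.31 for H1, 2.32 for H2B, 1.37 for H3 and 0.40 for H4. The 2 members lower in the liver both lie in the Hist3 cluster.

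Hist1h2bc was higher by a log2 fold change of 2.41 ± 0.23 (SE, edgeR adjusted p = 7.24e-08) and Hist1h1c by 2.31 ± 0.23 (adjusted p = 8.37e-08). Hist1h2bc ranged from 34.6 to 116.8 CPM in the CD livers and from 11.7 to 18.0 CPM in the CD brains, without overlap. The linker histone genes Hist1h1e (1.70 ± 0.21, adjusted p = 1.18e-06) and Hist1h1d (2.54 ± 0.49, adjusted p = 0.000159) were higher too. Hist1h3a (3.26 ± 0.44, adjusted p = 3.51e-06) and Hist2h2ac (1.69 ± 0.30, adjusted p = 7.45e-05) were the H3 and H2A genes with the smallest p. Hist1h2bj (3.24 ± 0.65) and Hist1h2bb (2.45 ± 0.50) completed the 8 higher genes with the smallest p. Hist3h2ba was lower in the liver by a log2 fold change of -3.90 ± 0.48 (adjusted p = 1.38e-06). Its neighbour Hist3h2a (chr11:58954685-58956830, plus strand) ranged from 1.95 to 8.20 CPM in the CD livers and from 4.53 to 8.75 CPM in the CD brains. These groups overlapped, and its log2 fold change was -0.78 ± 0.30 (adjusted p = 0.0248).

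The tissue contrast also changed when the livers high in Mki67 were left out. Without CD livers 3, 5, 6 and 7 the fit called 11 of 37 members higher in the liver (background 35.1%) and 12 lower (background 43.5%). The median of the members was -0.02 and that of all genes -0.23. Hist1h2bc (2.83 ± 0.11), Hist1h3a (2.18 ± 0.33), Hist1h1c (1.93 ± 0.19) and Hist1h1e (1.29 ± 0.12) were still called higher. Hist1h1d fell to 0.80 ± 0.23 and Hist1h2bj to 0.71 ± 0.32, the latter with an adjusted p of 0.0563. Hist3h2ba moved to -5.64 ± 0.41 and Hist3h2a to -1.67 ± 0.22. Of the 12 H4 genes, 6 were then lower in the liver and 2 higher. Hist1h4k had a log2 fold change of -2.64 ± 0.20, against 0.01 ± 0.58 with all livers, and Hist1h4n -2.69 ± 0.33 against -0.01 ± 0.57. These H4 genes were named after their values were seen, and 31.9% and 16.6% of their windows were unique. The livers left out were the 4 highest for 21 of the 37 members tested in the liver, Hist1h4k and Hist1h4n among them. Their removal therefore lowered the liver level of these members by construction. The livers kept included CD liver 1, which was high in Gm10800. This fit cannot show what the tissue contrast rested on.

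**Figure D4:**
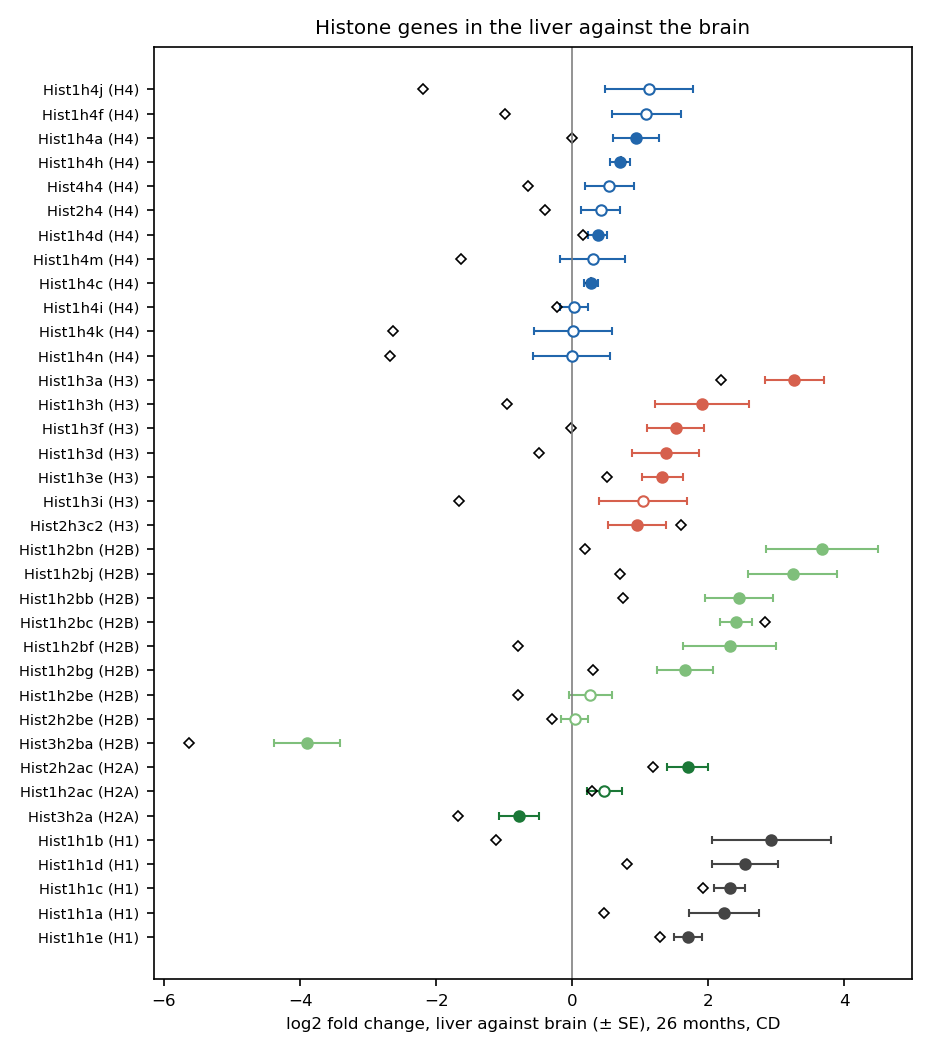
Log2 fold change of the 36 members tested between CD livers and CD brains at 26 months (x axis), with the SE as bars, coloured by class and filled where the adjusted p was under 0.05. Black diamonds give the same value without CD livers 3, 5, 6 and 7. Hist1h2bc and Hist1h1c stay near or above 2, Hist3h2ba lies far below 0, and several H4 genes move to the left.

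The lists of related genes are read against the shares of all genes, 36% higher and 41% lower in the liver. Of 35 tested genes of DNA replication and mitosis, 28 were higher in the liver (80%) and 3 lower, with a median log2 fold change of 2.0. Their summed level was 1031 to 1504 CPM in CD livers 3, 5, 6 and 7. CD livers 1, 2, 4 and 8 had 266.7 to 404.4 CPM, and the CD brains of 26 months 199.8 to 248.0 CPM. Without the 4 high livers 17 were higher (48.6%, background 35.1%) and 6 lower, with a median of 0.34. Mki67, by which these livers were chosen, is itself in this list, so a fall was built in. Tk1, thymidine kinase, had 3.81 ± 0.17 (adjusted p = 1.09e-11) and Cdk2 3.25 ± 0.18 (adjusted p = 7.28e-11). Of 13 genes of 3′ end processing, 3 were higher (23.1%) and 4 lower (30.8%), both below the shares of all genes. Lsm10 and Lsm11, subunits specific to the U7 snRNP, went in opposite directions, with 1.98 ± 0.15 and -1.70 ± 0.14 (adjusted p = 5.48e-09 and 9.08e-09). Of 13 genes of histone mRNA decay, 5 were higher (38.5%) and 2 lower (15.4%), and of 16 histone chaperones 9 were higher (56.2%) and 4 lower (25%). Of 11 variant histone genes, 8 were higher in the liver (72.7%) and 2 lower, namely H2afy2, a macroH2A gene (-2.94 ± 0.14, adjusted p = 1.91e-11), and H1fx, a linker histone variant (-4.55 ± 0.32, adjusted p = 1.35e-09).

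In the brain, the one-week KD at 12 months called no member of 37 tested (background 0.00453% of 22079 genes). At an unadjusted p under 0.05 it also found 0, where 2.65% of all genes passed. The median log2 fold change of the members was 0.01, and 20 of 37 lay above 0. The smallest p belonged to Hist1h2bf, an H2B gene with 43.4% unique windows. It had 0.816, 0.722, 0.772, 1.55 and 1.30 CPM in the 5 CD brains and a lowest, median and highest value of 0.917, 1.25 and 2.54 CPM in the 7 KD brains. Its log2 fold change was 0.40 ± 0.25 (edgeR adjusted p = 1.0). Hist2h2ab (0.40 ± 0.27) and Hist1h1a (0.26 ± 0.21) followed, with groups that overlapped.

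Aging of the brain on CD, from 12 to 26 months, called no member either, of 37 tested (background 1.26%). The paper states that mice ate standard chow until the experimental diets began at 12 months. The 26-month brains had thus also been on CD for longer, and age and time on CD cannot be told apart. Gm10800 took at most 0.00134% of counts in the 12-month CD brains and 0.0551% to 1.22% in the 26-month CD brains. These shares did not overlap, so age and the Gm10800 share cannot be told apart either. Leaving out only the brains highest in Gm10800 kept this separation. The part of the Gm10800 share in the values of the members was not tested. At an unadjusted p under 0.05, 7 members were higher (18.9%) and 0 lower, where 7.81% of all genes were higher. Of the 7, 4 were H4 genes, and 11 of the 12 H4 genes tested lay above 0 with a median log2 fold change of 0.13. The gene with the smallest p was Hist4h4 (chr6:136801553-136804415, minus strand), the H4 gene outside the large clusters. It had 8.34, 7.42, 5.32, 6.36 and 8.29 CPM in the 12-month CD brains and 7.39, 8.51 and 12.6 CPM as the lowest, median and highest of the 26-month CD brains. The groups overlapped, and the log2 fold change was 0.43 ± 0.14 (edgeR adjusted p = 0.163). Hist2h2ab had 1.09, 1.55, 0.429, 0.734 and 0.745 CPM at 12 months and 0.811, 1.29 and 1.97 CPM as the lowest, median and highest at 26 months, a log2 fold change of 0.62 ± 0.26 (adjusted p = 0.295). Hist1h4c had 30.3, 30.0, 30.6, 27.9 and 30.4 CPM at 12 months, a narrow range, and 25.6, 32.3 and 43.4 CPM at 26 months. Its log2 fold change was 0.19 ± 0.08 (adjusted p = 0.33).

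The related lists were likewise without a call in aging. Of 35 genes of DNA replication and mitosis, 7 were higher at an unadjusted p under 0.05 (20%) and 0 lower, with a median log2 fold change of 0.12. Of all genes tested, 7.81% were higher at this threshold. Cdc20, an activator of the anaphase-promoting complex, had 0.84 ± 0.29 (adjusted p = 0.172), and Asf1b, an H3 and H4 chaperone of dividing cells, 0.97 ± 0.35 (adjusted p = 0.211). Mki67 was at 3.23 to 6.95 CPM in the 26-month CD brains and at 2.66 to 6.24 CPM in those of 12 months. Globin and other erythroid genes had a median of 1.09 over the 6 tested, with sums of 79.7 to 130.5 CPM at 12 months and 95.0 to 363.3 CPM at 26 months, and 4 of 5 oligodendrocyte markers were higher at an unadjusted p under 0.05. Their part in the values of the members was not tested. The number of members with an unadjusted p under 0.05 was 1 without 12-month CD brain 13, 2 without 12-month CD brain 7, 2 without 26-month CD brain 1, 3 without 26-month CD brain 8 and 3 in a fit of these groups alone. The share of all genes is not given for these fits.

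The one-year KD called no member in the brain (background 0%), and 1 of 37 passed an unadjusted p of 0.05, where 4.52% of all genes did. This was Hist1h2be, whose gene model overlaps other genes of the cluster, so its reads may not be its own. Its lowest, median and highest CPM were 6.28, 9.55 and 10.9 on CD and 8.64, 11.3 and 14.4 after the KD. The groups overlapped, and the log2 fold change was 0.31 ± 0.12 (edgeR adjusted p = 0.989). Hist1h2bc (0.18 ± 0.10) and Hist1h1c (-0.18 ± 0.10) followed. The median of the members was 0.11 against -0.00 over all genes, and 28 of 37 lay above 0.

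The difference between the one-year and the one-week effect was tested directly and called no member (background 0%). Again 1 of 37 passed an unadjusted p of 0.05, where 4.52% of all genes did. This was Hist2h2ab, with a difference of -0.74 ± 0.34 in log2 fold change (edgeR adjusted p = 1.0). The brain effects share samples with each other, the 26-month CD brains standing in both aging and the one-year KD, so their values are given side by side only.

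**Figure D5:**
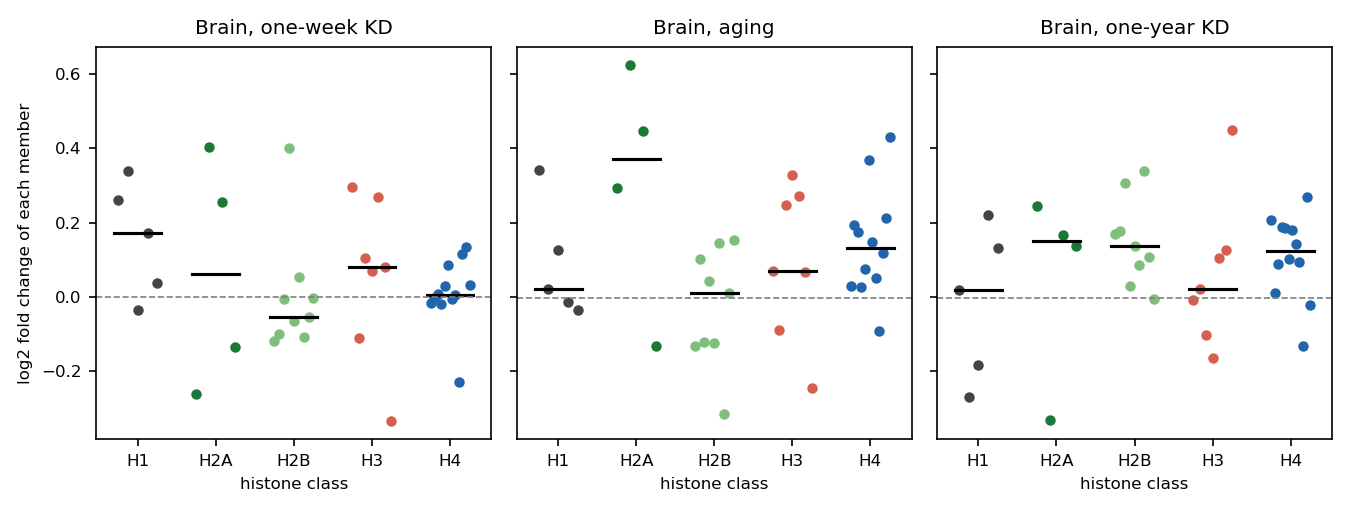
Log2 fold change of each of the 37 members tested in the brain (points), by histone class (x axis), for the one-week KD at 12 months, aging on CD and the one-year KD at 26 months. Black bars give the class median and the dashed line the median of all genes tested. The H4 median lies at 0.01, 0.13 and 0.12, and no point passed the adjusted threshold.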

How the data were processed

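RNA was isolated with Direct-zol, depleted of ribosomal RNA and sequenced on an Illumina NovaSeq. The authors named Trimmomatic, STAR with GRCm38 and RSEM, with no versions given in the sources used here. The authors deposited unnormalized whole-number counts for each gene. Treatment of reads with several hits and the strand setting are not given in the sources used here. Identifiers were matched to GENCODE M21. Members and gene lists were chosen with earlier results of these data known. Counts were tested in R 4.3.3 with edgeR 4.0.16 (filterByExpr, TMM, quasi-likelihood F test, Benjamini-Hochberg adjustment over all genes tested), in 1 fit for the 16 livers, 1 for the 28 brains and 1 for the 16 CD tissues at 26 months. A member was called at an adjusted p under 0.05. Scripts were tested on simulated data. Levels came from 1 TMM scaling of all 44 libraries. The text names, per comparison, at most 8 called members in each direction or the 3 with the smallest p, per class the 2 highest per kb in each tissue, and at most 2 genes of each other list. Motifs and stem-loops were searched with Python. The paper describes the 8 libraries of each 26-month group as 8 mice, and p-values measure only the spread between these samples. Alternatives were DESeq2 1.42.0, limma 3.58.1 voom, other scalings and filters, a covariate of receptor genes, and left-out libraries.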

Additional observations from a re-analysis of the deposited data

Results flagged for a closer look

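In 114 groups of values looked at, 7 held a library far from the rest of its group, close to the 1 in 20 that chance alone gives. The groups were not independent, since the sums contain the named members, so this share is only a rough guide. KD liver 12 accounted for 5 of the 7. Its summed H2A level was 12.2 CPM where the other 7 KD livers lay at 4.66 to 7.83 CPM, and its summed H3 level was 93.8 CPM against 15.5 to 40.4 CPM. In the same liver Hist1h2ak stood at 1.06 CPM against 0 to 0.325 CPM, Hist1h2bn at 10.1 CPM against 0.4 to 2.36 CPM, and Hist1h3i at 12.0 CPM against 0.34 to 3.15 CPM. Among the brains after the one-year KD, Hist1h1c was low in replicate 14, at 16.3 CPM against 21.9 to 24.0 CPM. Among the 26-month CD brains, Hist3h2ba was high in replicate 3, at 14.6 CPM against 7.90 to 10.1 CPM.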

How the results depend on the processing

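No member was called in the liver after the one-year KD, or in any of the 4 brain comparisons, under any alternative or with any library left out (0 to 0). Between liver and brain, 24 members were called, and 22 to 27 with 1 library left out. The count was 37 with DESeq2, 38 with no filter on low counts, 11 with at least 10 counts in every library (20 members tested) and 15 with the replicate block. Without the livers high in Mki67, an alternative chosen after seeing the data, Hist1h2bj turned from -1.70 to 0.63 in the liver (adjusted p = 0.466), and the cause was not tested. Same-numbered samples were compared in their deviations from the group means. Between liver and brain the correlations were -0.03 to 0.09, and 3 of 8 matched their own number best. This cannot decide whether such samples share a mouse, which the labels do not say. In brain aging, where no brain can stand at both ages, the correlations were 0.22, -0.25 and -0.09. The replicate block called 0 members there. In the tissue comparison, scaling by total counts alone moved the median log2 fold change over all genes tested from -0.07 to -0.32.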
